A study of Danio rerio with 67 samples.

Results

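FABP7, SOX2, nes, FOXJ1 and foxj1b are zebrafish genes known as markers of radial glia and ependymal cells, and they were read here cell by cell in olig2-driven cells of the adult spinal cord. They are 5 of the 32266 genes counted. FABP7 was taken by its gene ID and the others by their symbols, and each was described in cells with high or low plp1b, the proteolipid protein gene of myelin. Symbols are spelled as in the gene name table used, which gives many zebrafish genes the human spelling.

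In the zebrafish spinal cord, ependymo-radial glia line the central canal, send processes to the outer surface and serve as progenitors after injury. FABP7 is the brain lipid-binding protein, a cytosolic fatty acid carrier of radial glia. SOX2 is a SoxB1 transcription factor that keeps neural progenitors undifferentiated, nes encodes the progenitor intermediate filament nestin, and the FOXJ1 factors switch on the genes of motile cilia. Cells of the ventral progenitor domain that express olig2 give rise to motor neurons and to oligodendrocyte progenitor cells (OPCs).

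Cells came from adult fish of the genotype Tg(olig2:eGFP), in which regulatory sequence of olig2 drives the fluorescent protein, so the sort takes every living cell with an active transgene, whatever its type. Lesion fish had the spinal cord cut and were taken at 7 days after the lesion, and sham control fish had the same operation with the cord left intact. Each group was 1 pool of tissue from 9 cords. A group is therefore 1 sample, cells are not replicates, and no test between groups was made. On the plate, columns 1 to 6 held sham and columns 7 to 12 lesion cells. Operation, pool and plate column therefore cannot be told apart.

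Median depth was 550763 gene reads in the 35 sham cells and 431348 in the 32 lesion cells. The median number of genes with a read went the other way, at 2256 in sham and 2965 in lesion cells. A level is given in reads per 1000000 gene reads (CPM), either in 1 cell or for the summed reads of a class of cells. Detection in a cell means at least 5 reads of the gene. Cells were split at 10000 CPM of plp1b. The highest cell under that value had 614 CPM and the lowest above it 19557 CPM, both of them lesion cells. The plp1b-low class held 6 sham and 15 lesion cells, and the plp1b-high class 29 sham and 17 lesion cells. The labels call all sorted cells OPCs. In the plp1b-high class, 8 to 14 of 18 oligodendrocyte markers, plp1b among them, were detected per cell, against 0 to 9 in the plp1b-low class. Of 19 OPC markers, plp1b-low sham cells held 7 to 10 and plp1b-low lesion cells 1 to 12. Markers of microglia, of endothelium and pericytes, and of fibroblasts numbered at most 2 per cell in every class.

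The genes lie on different chromosomes of GRCz10. FABP7 (ENSDARG00000007697) is at chr17:15425585-15427954 on the plus strand, with 858 exonic bases. SOX2 (sox2, ENSDARG00000070913) is at chr22:37412978-37415049 on the minus strand, with 2072 exonic bases. The nes gene (ENSDARG00000088805) is at chr16:29109044-29119290 on the plus strand, with 4587 exonic bases. FOXJ1 (foxj1, ENSDARG00000101919) is annotated at chr3:60637106-60838792 on the plus strand, and foxj1b (ENSDARG00000088290) at chr12:20027431-20035142 on the plus strand. The FOXJ1 model spans 201687 bases for 3812 exonic bases. It has 2 other genes inside it, which had 1169 reads over all cells. None of the 5 genes shares exonic bases with another gene. Whether every exon of the FOXJ1 model belongs to 1 transcript was not tested. Over all cells FABP7 had 45286 reads, nes 7066, SOX2 6528 and FOXJ1 1278. The foxj1b gene had 5 reads in 3 cells and was detected in none, and a second gene with the symbol FABP7 had 1 read.

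**Figure D1:**
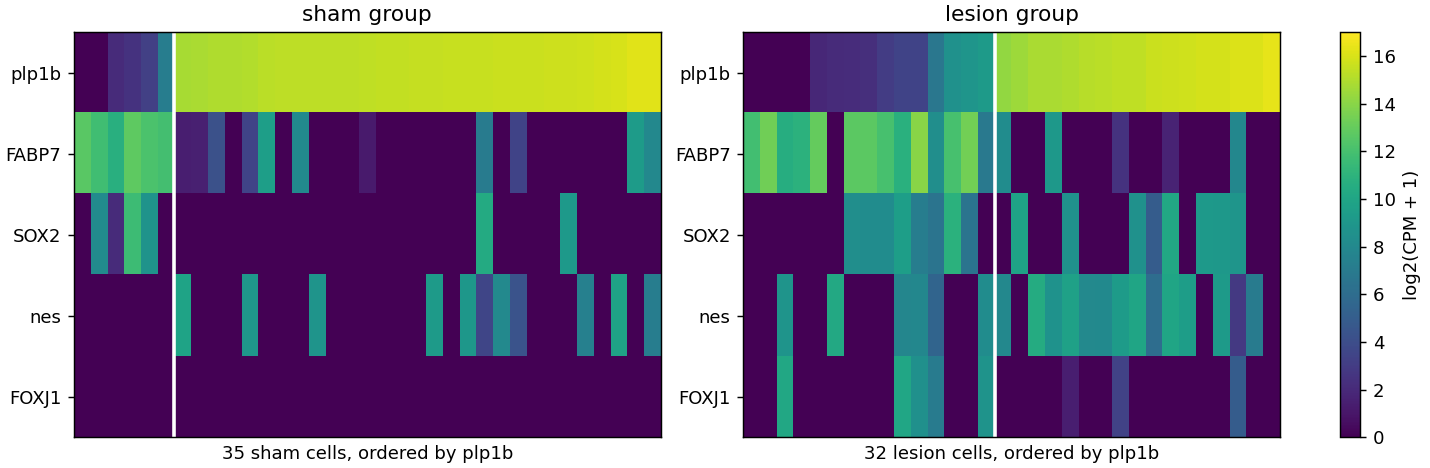
Level of plp1b and of 4 of the genes in each of the 35 sham cells (left) and 32 lesion cells (right), as log2(CPM + 1) by colour, with cells ordered by plp1b and a white line at the split. FABP7 fills the cells left of the line in both groups, nes lies mostly right of it, and FOXJ1 is coloured in lesion cells alone.

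FABP7 marked the cells with little plp1b in both groups, at about the same level. It was detected in 6 of 6 plp1b-low sham cells (95% interval 54.1% to 100%) and in 14 of 15 plp1b-low lesion cells (93.3%, 68.1% to 99.8%). In the plp1b-high class it was detected in 8 of 29 sham cells (27.6%, 12.7% to 47.2%) and 3 of 17 lesion cells (17.6%, 3.80% to 43.4%). These intervals for shares, and those for summed reads, cover counting error only. Reads were counted without molecular identifiers and are not independent molecules.

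The 6 plp1b-low sham cells had 1679, 3610, 3953, 4633, 6367 and 7089 CPM of FABP7. The 15 plp1b-low lesion cells ran from 0 over a median of 4255 to 16088 CPM. The lesion cells therefore lay on both sides of the sham range, and the class medians, 4255 CPM in lesion and 4293 CPM in sham cells, were close. In the plp1b-high class the highest sham cell had 732 CPM and the highest lesion cell 531 CPM, below every plp1b-low sham cell. The plp1b-low lesion cells under 732 CPM were E12 at 336, E07 at 116 and F09 at 0 CPM, where a letter and number name the plate well.

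Summed over cells, FABP7 was at 4960 CPM in plp1b-low sham cells (4874 to 5046) and 5032 CPM in plp1b-low lesion cells (4976 to 5089). It was at 72.0 CPM in plp1b-high sham cells and 62.0 CPM in plp1b-high lesion cells. On the scale log2 of (CPM + 1), lesion minus sham was 0.02 in the plp1b-low class (interval -0.01 to 0.05) and -0.21 in the plp1b-high class (-0.37 to -0.06). Within plate rows B to E these differences were 0.36 and -0.54, and within rows F to H -0.91 and 1.19. Low minus high plp1b was 6.09 in sham cells (6.02 to 6.19), a 68.0-fold difference, and 6.32 in lesion cells (6.21 to 6.48), a 79.9-fold difference. Scaling by TMM factors, which moved the median of all genes by -1.07 in sham and -0.47 in lesion cells, left 5.02 and 5.85. In sham cells 39.2% of 9601 genes tested were higher in the plp1b-low class by 2-fold or more, and 43.1% were lower. In lesion cells 47.3% of 11062 genes were higher and 26.9% lower. A 2-fold difference is thus common in these sums of few cells. Per kilobase of exon, FABP7 was above 99.97% of the 8710 genes with a read in plp1b-low sham cells and of the 15095 such genes in plp1b-low lesion cells.

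The other fatty acid-binding protein genes did not share this pattern. Of 11 on the list, FABP3 and FABP2 were the ones past 5 CPM in any class. FABP2, the intestinal form in mammals, was at 952 CPM in plp1b-high sham and 779 CPM in plp1b-high lesion cells, against 0.388 and 3.26 CPM in the plp1b-low cells. FABP3, the heart form in mammals, was at 869 CPM in plp1b-high sham and 3675 CPM in plp1b-high lesion cells, and at 492 and 682 CPM in the plp1b-low sham and lesion cells.

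**Figure D2:**
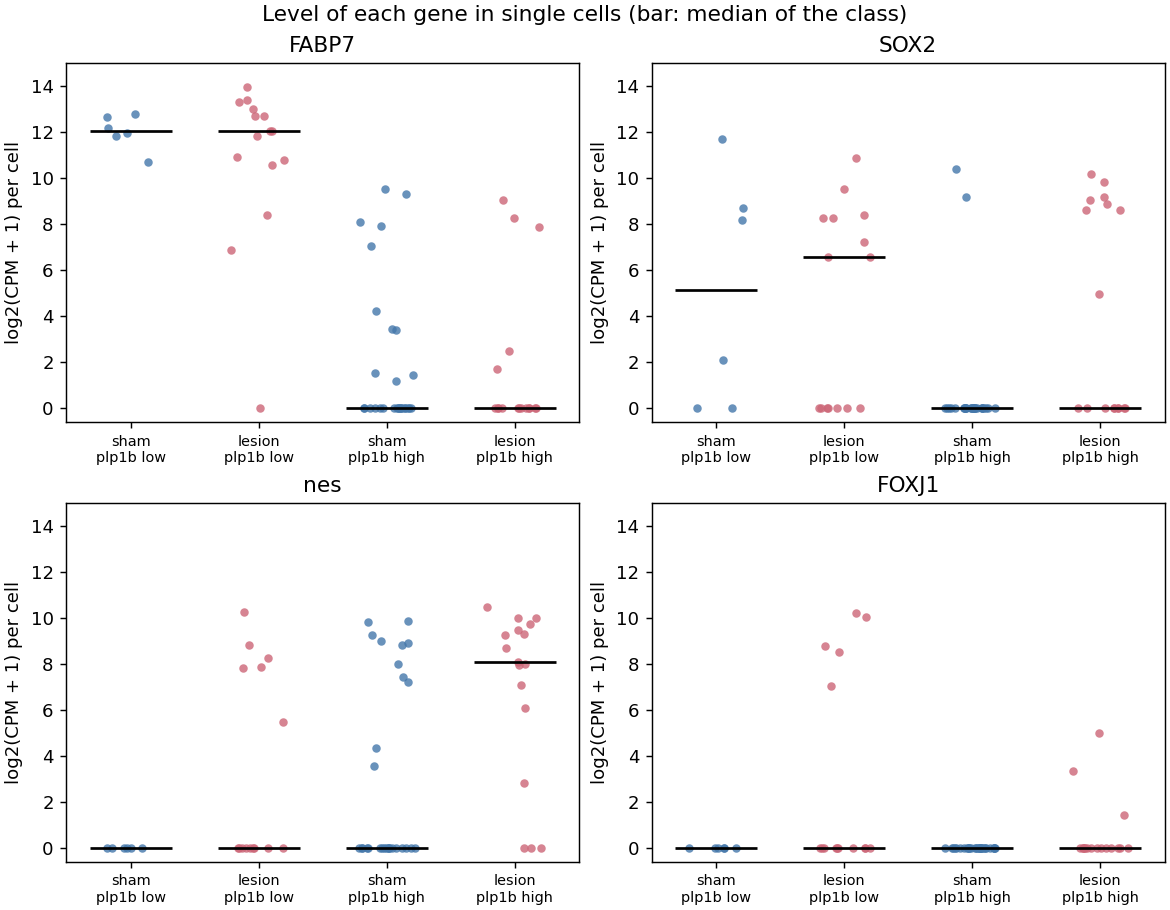
Level of each gene per cell on the scale log2(CPM + 1), by operation and plp1b class, with 1 point per cell and a bar at the median of the class. FABP7 lies mostly between 10 and 14 in both plp1b-low classes, while nes and FOXJ1 are at 0 in all 6 plp1b-low sham cells.

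SOX2 was found in about the same share of plp1b-low cells in both groups, and in far more plp1b-high cells of the lesion group than of the sham group. In the plp1b-low class it was detected in 3 of 6 sham cells (50%, 11.8% to 88.2%) and 8 of 15 lesion cells (53.3%, 26.6% to 78.7%). In the plp1b-high class it was detected in 2 of 29 sham cells (6.90%, 0.846% to 22.8%) and 8 of 17 lesion cells (47.1%, 22.98% to 72.2%).

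Among plp1b-high sham cells, B02 had 1348 CPM of SOX2, D02 had 585 CPM and the other 27 had no read. Among plp1b-high lesion cells, the 8 with SOX2 ran from 30.4 over a median of 498 to 1150 CPM, and the other 9 had no read. The positive cells of the lesion group thus lay below or within the range of the 2 sham cells, and the groups differed in how many cells had any. The summed level was 244 CPM in lesion cells against 47.8 CPM in sham cells, a log2 difference of 2.33 (2.23 to 2.48). In this comparison 30.2% of 9180 genes tested were higher in lesion cells by 2-fold or more, and 31.9% were lower. A detected share at least 30 points higher in the lesion cells was found for 6.62% of the genes, SOX2 (40.2 points) and nes (38.5 points) among them. The cut of 30 points was not planned and was applied to all genes in this class alone. Shares at least 30 points lower were not counted, so the 6.62% is a description.

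Plp1b-high lesion cells had reads on a median of 2875 genes and plp1b-high sham cells on 2154, though the lesion cells had fewer reads. The part of this difference in the SOX2 shares was not tested. The sham cell B02 had reads on 6198 genes, the most of any cell. Lesion plp1b-high cells with SOX2 had a median of 3648 genes and those without it 2691, so in these cells SOX2 went with richer libraries. Among plp1b-high cells under 3000 genes, SOX2 was detected in 27.3% of lesion and 4.17% of sham cells. With every cell thinned to 301650 reads, which left out 3 sham cells, the shares were 47.1% and 3.85%. Thinning sets the reads equal and not the number of genes. In plate rows B to E the shares were 42.9% of lesion and 12.5% of sham cells, and in rows F to H 50% and 0%. Without the 2 plp1b-high cells with over 5000 genes, B02 and F07, the log2 difference was 4.41.

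In the plp1b-low class the SOX2 sums rested on single cells. The 6 sham cells had 0, 0, 3.30, 293, 416 and 3293 CPM, and the last, E03, gave 2179 of the 2411 reads. Of the 15 lesion cells, 7 had no read and the other 8 ran from 93.0 over a median of 308 to 1858 CPM. The sum was 245 CPM in lesion cells against 937 CPM in sham cells, a log2 difference of -1.93 (-2.03 to -1.84). With each class's highest cell left out it was 0.037, and cells of plate rows F to H alone gave 1.098. Of 10619 genes tested here, 50% were higher in lesion cells by 2-fold or more, and 27.5% were lower. Low minus high plp1b was 4.26 on the log2 scale in sham cells and 0.01 in lesion cells. In sham cells it was 3.48 with each class's highest cell left out and 6.42 without B02, the cell with over 5000 genes.

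The most abundant other SoxB gene, SOX21, a SoxB2 factor of neural progenitors, was detected in 8 of 15 plp1b-low lesion cells and in no other cell. It had no read in the sham cells, was at 153 CPM in plp1b-low lesion cells and had 0.531 CPM in plp1b-high lesion cells. The remaining SoxB genes were low. The highest of them, sox19b, reached 39.8 CPM in plp1b-low lesion cells from 2 detected cells, and no SoxB gene other than SOX2 was detected in any plp1b-high cell.

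**Figure D3:**
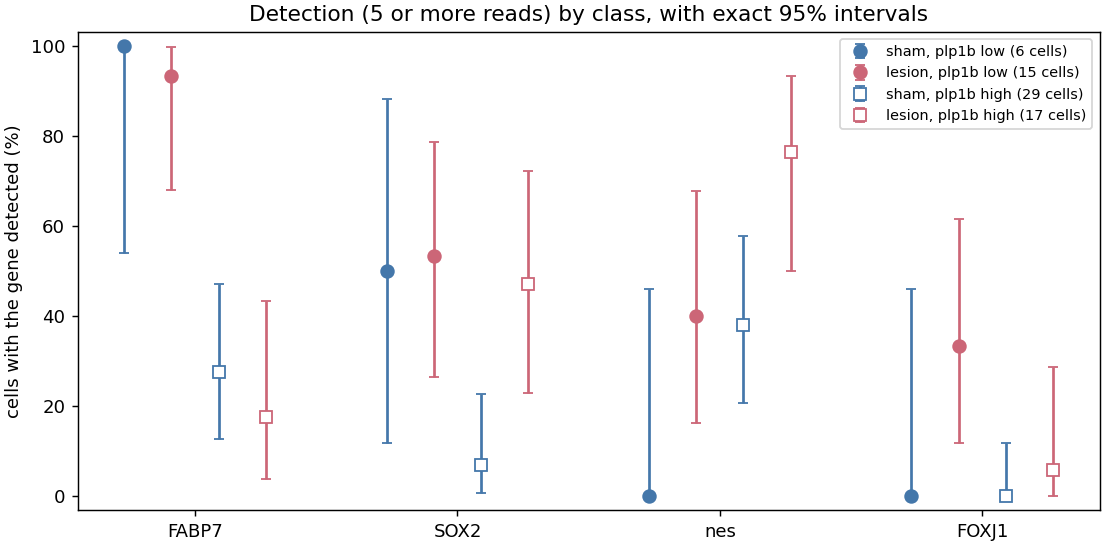
Share of cells with each gene detected, in percent, with exact 95% intervals that cover counting error only, for sham (blue) and lesion (red) cells with low plp1b (filled circles) and high plp1b (open squares). In the plp1b-high class the shares of SOX2 and nes are higher in the lesion cells, at 47.1% against 6.90% and 76.5% against 37.9%.

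The nes gene was, in contrast to FABP7, mainly detected in the plp1b-high class. It was detected in 11 of 29 plp1b-high sham cells (37.9%, 20.7% to 57.7%) and 13 of 17 plp1b-high lesion cells (76.5%, 50.1% to 93.2%). In the plp1b-low class it was detected in 0 of 6 sham cells, which allows a share of up to 50% by a limit of 3 cells (exact upper end 45.9%), and in 6 of 15 lesion cells (40%, 16.3% to 67.7%).

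Plp1b-high sham cells ran from 0 to 921 CPM of nes with a median of 0, and plp1b-high lesion cells from 0 to 1434 CPM with a median of 266 CPM. Among the cells in which it was detected, the lesion median was 613 CPM and the sham median 446 CPM, and the ranges overlapped. The sums were 170 CPM (164 to 176) and 454 CPM (439 to 470), a log2 difference of 1.41 (1.35 to 1.49). Within plate rows B to E this difference was 2.91 and within rows F to H 0.25, while the shares were 85.7% against 31.2% and 70% against 46.2%. Plp1b-high sham cells with nes had a median of 2968 genes and those without it 2028. Among plp1b-high cells under 3000 genes nes was detected in 81.8% of lesion and 25% of sham cells. All plp1b-high lesion cells had a median of 2875 genes and all plp1b-high sham cells 2154. The part of this difference in the nes shares was not tested.

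No read of nes fell in the 6 plp1b-low sham cells, a sum under 1.17 CPM by the limit of 3 reads. The 6 plp1b-low lesion cells with nes had 43.6, 227, 234, 302, 445 and 1206 CPM, and the other 9 had none. The sum was 146 CPM. The limit of 1.17 CPM in plp1b-low sham cells counts reads and not cells, so no fold is drawn from it. Within the lesion group the plp1b-low sum was below that of the plp1b-high cells, at 146 against 454 CPM, a log2 difference of -1.63 (-1.74 to -1.53). Within plate rows F to H this difference was -0.047. Plp1b-low lesion cells with nes had a median of 4181 genes and those without it 2915, and plp1b-low sham cells had at most 3419. Among plp1b-low lesion cells under 3000 genes, nes was detected in 16.7%.

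Per kilobase of exon, the order of the genes differed between classes. This scale takes reads to cover the whole transcript, which the sources used here do not state. In plp1b-low sham cells FABP7 was at 5781 and SOX2 at 452 CPM per kilobase, with no read of nes or FOXJ1. In plp1b-low lesion cells the order was FABP7 at 5865, SOX2 at 118, FOXJ1 at 54.0 and nes at 31.9 CPM per kilobase. In plp1b-high lesion cells it was SOX2 at 118, nes at 99.0, FABP7 at 72.3 and FOXJ1 at 0.523 CPM per kilobase, and in plp1b-high sham cells FABP7 at 83.9, nes at 37.1 and SOX2 at 23.1. The values of SOX2 and nes in plp1b-high lesion cells were close to each other, as were those of FOXJ1 and nes in plp1b-low lesion cells.

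FOXJ1 was detected in lesion cells alone, and almost all of its reads came from 5 plp1b-low cells. Those cells were H11 with 1169 CPM, G12 with 1059, E07 with 432, C12 with 366 and E12 with 131 CPM, from 486, 331, 239, 147 and 60 reads. The other 10 plp1b-low lesion cells had no read. The share was 5 of 15 (33.3%, 11.8% to 61.6%). Of 17 plp1b-high lesion cells 1 had it detected, D12 with 30.5 CPM from 10 reads, and 2 others had 5 reads between them, C11 with 4 and F07 with 1.

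No read of FOXJ1 fell in any of the 35 sham cells, which allows a detected share of up to 50% in the plp1b-low and 10.3% in the plp1b-high class by the limit of 3 cells. The upper ends of the exact intervals were 45.9% and 11.9%. With 6 plp1b-low sham cells, a share like the 33.3% of the lesion cells could be missed by counting alone. The sum was 206 CPM in plp1b-low lesion cells (195 to 217), against a limit of 1.17 CPM in plp1b-low sham cells. That limit counts reads and not cells, so no fold is drawn from it. Within the lesion group the plp1b-low sum stood against 1.99 CPM in plp1b-high cells, a log2 difference of 6.11 (5.96 to 7.53). The interval is that of the ratio without the added 1 CPM, which matters at 1.99 CPM. The log2 difference was 4.23 within plate rows B to E and 8.37 within rows F to H. Both sets of rows held such cells, at 30% and 40% of plp1b-low lesion cells. By plate column, C12, D12, E12 and G12 were the only cells in column 12, and FOXJ1 was detected in each. H11 was in column 11 and E07 in column 7. Whether FOXJ1 followed the plate column was not tested. E12 had reads on 5140 genes, and without cells of over 5000 genes the share was 28.6%. E07, G12 and C12 had reads on 4168, 4194 and 4597 genes, and the plp1b-low sham cells on at most 3419. Among plp1b-low lesion cells under 3000 genes the share was 16.7%, from H11. The part of the number of genes read in the FOXJ1 shares was not tested.

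**Figure D4:**
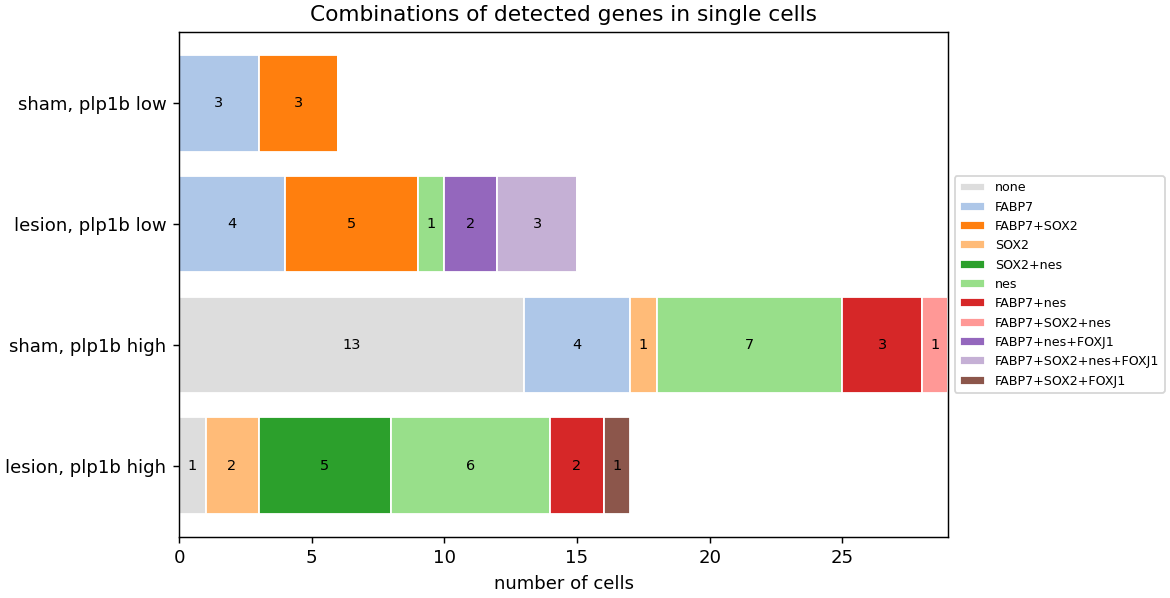
Number of cells with each combination of FABP7, SOX2, nes and FOXJ1 detected, by operation and plp1b class, with 1 coloured segment per combination. All 6 plp1b-low sham cells hold FABP7 with or without SOX2, and the combinations with FOXJ1 are in the lesion classes.

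Joint detection divided the plp1b-low lesion cells into those that matched the sham combinations and those that did not. The 6 plp1b-low sham cells had FABP7 alone in 3 and FABP7 with SOX2 in 3. Among plp1b-low lesion cells, 4 had FABP7 alone and 5 had FABP7 with SOX2, the same 2 combinations. The remaining 6 were 3 with all 4 genes, 2 with FABP7, nes and FOXJ1, and 1 with nes alone. Each of the 5 plp1b-low cells with FOXJ1 also had nes, and of the 10 lesion cells without FOXJ1 1 had nes. Every plp1b-low cell with SOX2, 11 in all, also had FABP7, as did 9 of the 10 without SOX2.

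In the plp1b-high class the combinations were of another kind. Of 29 sham cells, 13 had none of the genes, 7 had nes alone, 4 FABP7 alone, 3 FABP7 with nes, 1 SOX2 alone and 1, B02, all but FOXJ1. Of 17 lesion cells, 6 had nes alone, 5 SOX2 with nes, 2 SOX2 alone, 2 FABP7 with nes, 1 none, and 1, D12, FABP7, SOX2 and FOXJ1. SOX2 and nes were detected together in 29.4% of plp1b-high lesion and 3.45% of plp1b-high sham cells. Among the lesion cells nes was no more common with SOX2 (5 of 8) than without it (8 of 9).

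The 5 plp1b-low cells with FOXJ1 had more motile cilia genes detected than the other plp1b-low cells, though a minority of the list in each. Of 84 such genes counted, axonemal dyneins, radial spoke and intraflagellar transport genes among them, 9 to 36 were detected per cell (median 15), against 0 to 4 (median 2) in the other 10 plp1b-low lesion cells and 1 to 3 in the plp1b-low sham cells. Their summed level was 912 to 6545 CPM in the 5 cells and 2.14 to 659 CPM in the other 10. The counts for the 5 cells were 36 in C12, 16 in G12, 15 in E07, 11 in E12 and 9 in H11. TPPP3, a tubulin polymerisation protein of ciliated cells, and RFX2, a factor that acts with FOXJ1 on ciliary genes, were each detected in 5 plp1b-low lesion cells. Whether these were the cells with FOXJ1 is not given here. Neither had a read in plp1b-low sham cells, but RFX2 was detected in 1 plp1b-high sham cell, at 553 CPM. The others of the 5 most abundant genes of the list, spag1a, CFAP20 and NME5, were lower in plp1b-low lesion than in plp1b-low sham cells. The 5 cells with FOXJ1 had reads on a median of 4194 genes and the other 10 on 3049.5, but the ranges overlapped. H11, with 9 cilia genes, had reads on 2916 genes. Without FOXJ1, D11 had 4767 genes and 1 cilia gene, D07 4663 and 4, and C07 4596 and 4. The part of the number of genes read in the counts of cilia genes was not tested.

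By SOX2, GFAP, ISL1, MNX1 and the neuron markers the 5 cells fell into 2 sets. GFAP, ISL1 and MNX1 were named after their values were seen. C12, G12 and E12, all in plate column 12, had SOX2 at 149, 736 and 93.8 CPM. They were the only plp1b-low lesion cells with GFAP, the glial intermediate filament, detected, at 2395, 595 and 111 CPM, and had no read of the motor neuron factors ISL1 and MNX1. H11 and E07 had no read of SOX2 or GFAP, and had ISL1 at 1273 and 1130 CPM and MNX1 at 197 and 224 CPM. They held 9 and 11 of 29 neuron markers, ISL1 and MNX1 among these, against 1 in each of the first 3. The oligodendrocyte markers did not follow this division. Of 18, E12 held 9, G12 5 and C12 3, and E07 held 6 and H11 1. The single plp1b-low cell with nes and no FOXJ1, F09, had no FABP7 either, with ISL1 at 1453 CPM, MNX1 at 778 CPM and 14 neuron markers. OLIG2 was present in all of them, at 478 to 3867 CPM in the 5 cells with FOXJ1 and 694 to 14220 CPM in the other 10.

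**Figure D5:**
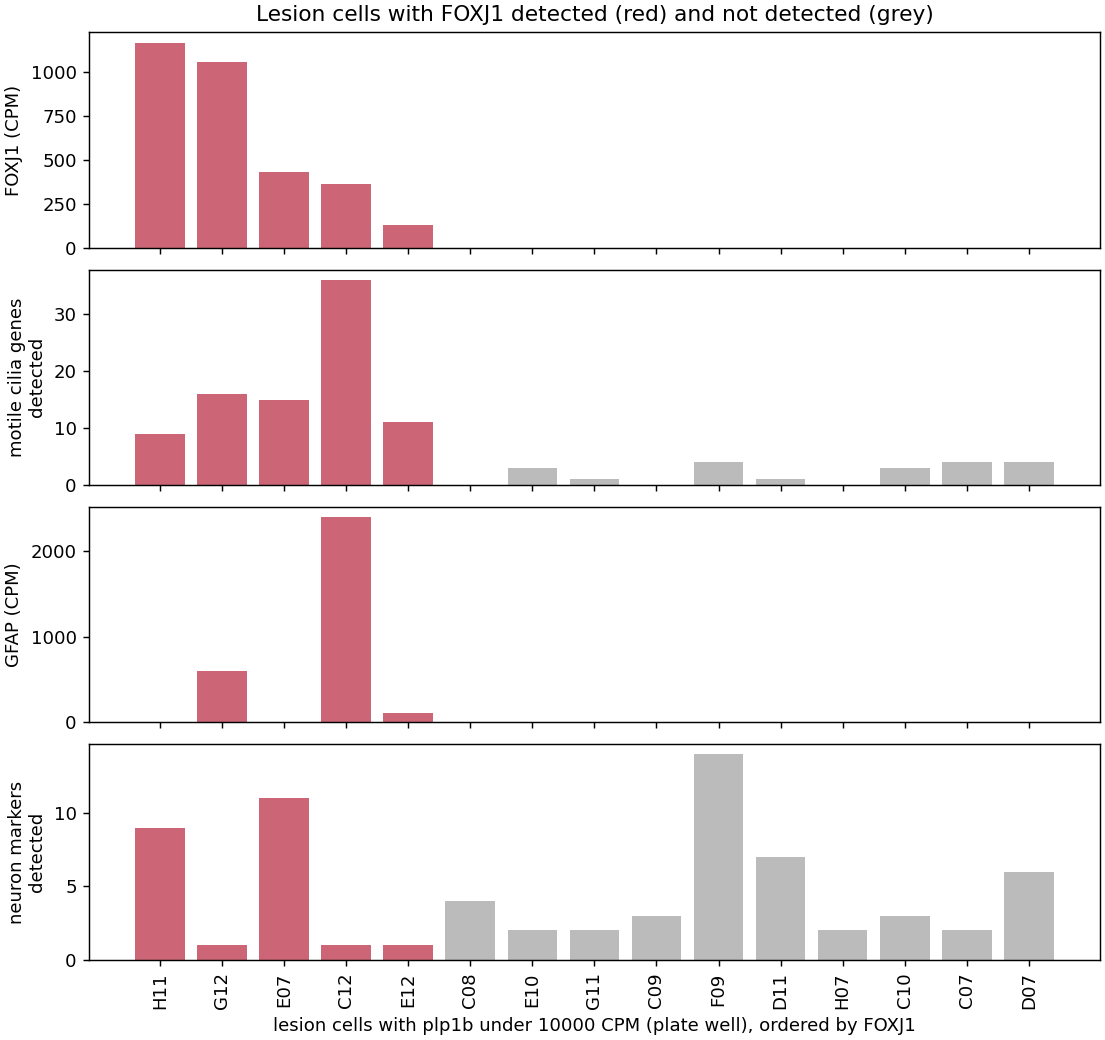
For each of the 15 plp1b-low lesion cells, named by plate well and ordered by FOXJ1, bars give from top to bottom the FOXJ1 level in CPM, the number of motile cilia genes detected, the GFAP level in CPM and the number of neuron markers detected. The 5 cells with FOXJ1 (red) hold 9 to 36 motile cilia genes and the others (grey) at most 4, while GFAP and the neuron markers divide the 5 cells into 3 and 2.

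Lists of related genes were compared between the plp1b-low cells of both groups, beside all genes tested. Of all 10619 genes tested, 50% were higher in lesion cells by 2-fold or more and 27.5% lower, and the median log2 difference was 1.00. The 15 lesion cells together had reads on 15095 genes and the 6 sham cells on 8710. A gene was tested if it had 5 CPM in either class, so one with no read in sham cells had to come out higher, and this was so for 33.5% of all genes tested. Among the 7060 genes tested that had a read in sham cells, 1750 were higher, 2917 were lower and the median was -0.48.

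Of 84 motile cilia genes 45 were tested, with 39 higher, 3 lower and a median of 3.999 (2.88 with genes at 0 set at the limit of 3 reads). Of these, 37 (82.2%) had no read in sham cells, so their direction was fixed by the filter and the count supports nothing. Of the other 8, 2 were higher and 3 lower. With each gene's highest cell left out of both classes, 27 of the same 45 genes were higher (60%, against 49.4% of all genes). The median was 1.95, against 0.92 for all genes. The 37 genes with no read in sham cells could not come out lower here either, so this comparison supports nothing. Without the 5 cells with FOXJ1, 14 were tested, 8 were higher and 5 lower, and the median was 3.28. All genes then had 44.5% higher, 32.8% lower and a median of 0.48. Of those 14 genes 7 had no read in sham cells, and of the other 7, 1 was higher and 5 lower.

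Over all 15 lesion cells, the 3 lower genes were all among the 5 most abundant of the motile cilia list. The first, spag1a, a dynein assembly factor, was at 67.0 CPM in lesion and 181 CPM in sham plp1b-low cells. CFAP20, a cilia and flagella protein, was at 52.5 and 135 CPM, and NME5 at 14.7 and 120 CPM.

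Over all 15 lesion cells the shares of the radial glia list were near those of all genes. Of 39 such genes other than the members 30 were tested, with 17 higher (56.7%, against 50% of all genes), 7 lower (23.3%, against 27.5%) and a median of 2.05 (1.70 with genes at 0 set at the limit of 3 reads). Of these, 7 had no read in sham cells, and among the other 23, 10 were higher, 7 lower and the median was 0.23. Without the 5 cells, 6 of 21 were higher (28.6%, against 44.5% of all genes), 7 were lower and the median was 0.02. Per cell, 8 to 24 of the 39 genes (median 19) were detected in the 5 cells with FOXJ1. The other 10 plp1b-low lesion cells had 4 to 10 (median 8), and the plp1b-low sham cells 7 to 13. The counts were 24 in C12, 19 in G12, 19 in E12, 11 in E07 and 8 in H11. The part of the number of genes read in these counts was not tested. The 5 most abundant genes of the list did not differ in 1 direction. CKB, a creatine kinase, was at 1999 CPM in lesion and 2274 CPM in sham plp1b-low cells, and SLC1A2, a glial glutamate transporter, at 1178 and 1097 CPM. S100B, a calcium-binding protein of glia, was at 659 and 451 CPM. GLUL, glutamine synthetase, was at 496 CPM in lesion and 1490 CPM in sham cells, a log2 difference of -1.59, and was higher in the plp1b-high class, at 2914 and 4240 CPM.

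VIM, the intermediate filament vimentin, differed most of these 5, at 1376 CPM in lesion and 27.6 CPM in sham plp1b-low cells, a log2 difference of 5.59. It was detected in 9 of 15 and 1 of 6 cells. Of 13 intermediate filament genes 9 were tested, with 6 higher, 2 lower and a median of 4.28 (3.16 with genes at 0 set at the limit of 3 reads). Of all genes 50% were higher and 27.5% lower, and 9 genes are too few to set the list apart. Of the 9 genes, 3 had no read in sham cells, and among the other 6, 3 were higher and 2 lower. Without the 5 cells, 7 were tested, with 4 higher and 2 lower and a median of 1.06. All genes then had 44.5% higher and 32.8% lower. Over all plp1b-low cells, the neuronal filament gene INA (ENSDARG00000053248) was at 380 CPM in lesion and 11.3 CPM in sham cells, from 4 and 1 cells in which it was detected. A second INA gene (ENSDARG00000011862) was at 104 and 75.7 CPM, a log2 difference of 0.45. PRPH, peripherin, was at 253 and 8.55 CPM, from 2 and 1 cells. Of 8 other SoxB genes 4 were tested, with 3 higher and 0 lower, beside 50% and 27.5% of all genes. Of those 4, 2 had no read in sham cells. The median of the 4 was 3.94 (3.38 with genes at 0 set at the limit, and 3.63 for the 2 tested without the 5 cells). Of 11 other fatty acid-binding protein genes 1 was tested, FABP3, with a log2 difference of 0.47 (1.16 without its highest cell).

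Genes whose level went most closely with each gene were sought over the 21 plp1b-low cells by Pearson correlation of log2(CPM + 1), among 1877 genes detected in at least 8 of them. The cells share 2 pools and differ in depth and in the number of genes read, so these values are a description. For FABP7 the highest were the syntenin gene sdcbp2 (0.87), the MHC class I gene mhc1zba (0.74), CTNNB1 (0.74), CD82 (0.71) and TRAF4 (0.71). For SOX2 they were CLDN12 (0.79), zgc:92242 (0.79), CTSD (0.77), SF3A2 (0.72) and RTF2 (0.72). For nes they were inavaa (0.88), PIK3R3 (0.88), MEX3B (0.81), VIM (0.81) and TAF7 (0.79), each detected in all 6 plp1b-low cells with nes.

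Among the genes themselves, nes and FOXJ1 had a correlation of 0.81 over these 21 cells, and nes and FABP7 one of -0.65. SOX2 had 0.32 with FABP7, -0.16 with nes and 0.00 (-0.003) with FOXJ1. Over all 67 cells and 5170 genes, the highest for FABP7 were TRAF4 (0.84), bcan (0.84), RASSF2 (0.79), marcksl1b (0.78) and marcksl1a (0.77). Of these bcan, a perineuronal proteoglycan gene, is on the list of OPC markers used here. The highest for SOX2 and nes were 0.61 and 0.52.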

How the data were processed

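Single sorted cells of the spinal cord were sequenced, 1 per plate well. The count table deposited by the authors holds raw, unnormalized reads per gene and cell, with gene lengths in bases. The submitters' processing notes list bcl2fastq 2.19.1, GSNAP (2018-05-30), featureCounts 1.6.2 and the build GRCz10, and the file header gives featureCounts 1.6.3. Per the file headers, genes were those of Ensembl release 87, strand was ignored (-s 0) and mapping quality had to reach 1, so antisense reads cannot be told apart. The sources used here do not name the library kit.

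A gene name table matched 26433 of the 32266 gene IDs to a symbol. Spike-ins, with 71 reads over all cells, were left out of totals. All 67 cells passed a filter of 10000 reads and 500 genes, and doublets were not called in so small a set. The highest correlation between any 2 cells was 0.838, so none was counted as a repeat.

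Reads were summed per class and scaled to CPM. Differences are log2 of (CPM + 1) ratios, tested genes had at least 5 CPM in either class, and a call is 2-fold. Sums carry exact 95% Poisson intervals and shares exact Clopper-Pearson ones. Intervals of log2 differences are exact conditional binomial ones of the read ratio, without the added 1 CPM. For low sums they are therefore not centred on the value given. For limits, a class at 0 was set at 3 reads, and a share of 0 at 3 cells of the class. List medians took a class at 0 as 0 CPM before 1 CPM was added, unless the limit of 3 reads is named. The log2 differences of summed reads were tested on simulated Poisson reads (Python 3.11.15, numpy 2.4.6, pandas 2.3.3, scipy 1.17.1, matplotlib 3.10.9). All simulated cells of a class shared 1 profile, so the spread between real cells was not covered. Intervals, limits and list medians were not tested in this way. TMM factors (edgeR 4.0.16) and size factors (DESeq2 1.42.0, R 4.3.3) were alternatives, with other read minimums, thresholds, added values, weights, plate rows, thinning and single cells left out. The log2 comparison of plp1b-high cells between groups, cells under 3000 genes, lists without the cells with FOXJ1, and the split of lists by reads in sham cells were chosen after seeing the data. The cut of 30 points in the detected share was not part of the plan either. Nor was the comparison of list counts and numbers of genes between cells with and without a member, such as FOXJ1.

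Genes named were the 5 members, the 5 genes most correlated with each member detected in at least 8 cells, and the 5 most abundant genes of each list. GFAP, ISL1, MNX1 and OLIG2 were named after their values were seen. The members and lists were chosen with earlier results of these data known. Marker lists covered radial glia, OPCs, oligodendrocytes, neurons, microglia, endothelium and pericytes, and fibroblasts.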

Additional observations from a re-analysis of the deposited data

Results flagged for a closer look

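The highest of the 6 plp1b-low sham cells had 3293 CPM of SOX2, far above the next at 416 CPM. Its gap to that cell, as a share of the range of all 6, was above Dixon's 95% critical value for 6 values. In this class alone, the 2 genes FABP7 and SOX2 were looked at in this way, each at its highest and its lowest cell. Of these 2 genes 1 was picked out. Dixon's value takes normally spread values, which CPM of single cells are not, so the rate at which chance picks out a gene is not known. SOX2 was lower in lesion than in sham cells in the plp1b-low class (log2 difference -1.93) and higher in the plp1b-high class (2.33). The difference between these values was not tested, and the first rests on the single sham cell.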

How the results depend on the processing

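Of the alternative values, 48 of 119 ratios and 176 of 189 shares stayed within the interval of the value reported. The intervals of ratios count reads and are narrow, while those of shares count cells and are wide. The 2 numbers therefore do not show which measure is steadier. Of 323 alternative values, 234 stayed within the counting error of the value reported (within 1.5 times for counts of genes), and 2 reversed a difference of 2-fold or more. Both were the SOX2 log2 difference of lesion minus sham in plp1b-low cells, 1.098 in plate rows F to H and 0.037 without the highest cell of each class, against -1.93. Its other values were -1.67 (TMM factors), -1.68 (DESeq2 size factors), -1.36 (mean of the cells' CPM), -2.03 (plp1b split at 20000 CPM) and -2.58 (rows B to E). TMM and DESeq2 factors moved the median of all genes by 0.26 and 0.25 in this comparison, by -0.17 and -0.10 in plp1b-high cells, and for low minus high plp1b by -1.07 and -1.01 in sham and -0.47 and -0.39 in lesion cells.

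For FABP7, lesion minus sham in plp1b-low cells was 0.28 (TMM), 0.27 (DESeq2), 0.17 (mean of cells), -0.079 (split at 20000 CPM), 0.36 (rows B to E), -0.91 (rows F to H) and 0.13 (without cells of over 5000 genes). Low minus high plp1b in sham cells was 5.02, 5.08, 5.98, 5.92 (10 CPM added), 5.37 (rows B to E), 7.80 (rows F to H) and 6.30 (without the highest cells). In lesion cells it was 5.85 (TMM), 5.94 (DESeq2), 6.13 (10 CPM added), 6.66 (split at 20000 CPM), 5.70 (rows F to H) and 7.00 (without the highest cells). For SOX2, low minus high plp1b in sham cells was 3.20 (TMM), 3.26 (DESeq2), 3.30 (mean of cells), 4.03 (10 CPM added), 6.42 (without cells of over 5000 genes) and 3.48 (without the highest cells). In lesion cells it was -0.46, -0.38, -0.19 (split at 20000 CPM), -0.21 (rows F to H), 0.15 (without cells of over 5000 genes) and -0.60 (without the highest cells).

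For nes, low minus high plp1b in lesion cells was -2.10 (TMM), -2.01 (DESeq2), -1.45 (mean of cells), -3.30 (rows B to E), -0.047 (rows F to H), -1.44 (without cells of over 5000 genes) and -2.09 (without the highest cells). For FOXJ1 it was 5.72 (TMM), 5.79 (DESeq2), 5.95 (mean of cells), 4.17 (10 CPM added), 5.94 (split at 20000 CPM), 4.23 (rows B to E) and 8.37 (rows F to H). The causes were not tested.

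Among shares, FABP7 in plp1b-low lesion cells was 100% when thinned, in rows B to E and in cells under 3000 genes. SOX2, alone or with FABP7, was in 16.7% of plp1b-low lesion cells under 3000 genes. SOX2 in plp1b-high sham cells was 0% in rows F to H, and FOXJ1 in plp1b-high lesion cells was 0% there and in cells under 3000 genes. SOX2 with nes in plp1b-high sham cells was 0% at 10 reads, when thinned, in rows F to H, without cells of over 5000 genes and in cells under 3000 genes. Without the cells with FOXJ1, 44.5% of all genes tested were at least 2-fold higher in plp1b-low lesion cells. Of the lists, 6 of 21 radial glia, 1 of 2 SoxB and 8 of 14 motile cilia genes tested were higher. Of those 14 genes 7 had no read in sham cells, so their direction was fixed. In the list of fatty acid-binding proteins, 1 of 11 was higher with no filter. Without each gene's highest cell, the 1 tested was higher, against 49.4% of all genes.

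No paired analysis was possible because the cells carry no replicate numbers beyond their plate wells and each group is 1 pool. With 6 plp1b-low sham cells, detection in 0 of them allows a share of up to 50%. The spread between fish was not measured.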
